A study of Mus musculus with 16 samples.

Results

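The interferon regulatory factors are described here from CPEB4 RNA-immunoprecipitation sequencing of mouse macrophages. The genes taken by symbol were Irf1, Irf2, Irf3, Irf4, Irf5, Irf7, Irf8 and Irf9. They are 8 of the 14925 genes with a symbol among the counted 3′-UTRs. All 8 were listed, but Irf3 and Irf4 had too few reads for any ratio, and Irf7 had enough only where an LPS library was in the pair. The RNA-binding protein CPEB4 acts on mRNAs that carry cytoplasmic polyadenylation elements (CPEs), which are U-rich and lie in the 3′-UTR. Bone marrow-derived macrophages (BMDMs) came from a wild-type (WT) culture and from a culture with total knockout of Cpeb4 (KO), both of adult mice of the strain labelled C57BL/6J 129. They had been differentiated with L-cell medium as the source of M-CSF, and were left untreated or were given 10 ng/ml lipopolysaccharide (LPS) for 9 h. In each of the 4 conditions the RNA pulled down by an antibody against CPEB4 (RIP) was sequenced beside lysate RNA (Input, depleted of ribosomal RNA). The 16 samples are 8 libraries, each run on lanes 7 and 8, and the lanes share 1 column of counts. There was thus 1 library per genotype, treatment and assay. No difference between conditions could be tested, and none has a replicate check.

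Interferon regulatory factors are transcription factors that share a DNA-binding domain and bind the interferon-stimulated response element of promoters. IRF3 and IRF7 drive the type I interferon genes after pathogen sensing, and IRF9 is the DNA-binding part of a complex that carries the interferon signal to the nucleus. IRF1 is an activator induced by interferons, IRF2 competes with it for the same sites, IRF5 drives inflammatory cytokine genes, IRF8 is a lineage factor of monocytes and macrophages, and IRF4 takes part in alternative macrophage activation.

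Levels are given in RPM, a 3′-UTR's reads scaled per 1000000 3′-UTR reads of the library, for the 3′-UTR region of a gene that had the most reads. Ratios are log2 ratios of RPM after 1 read was added to each library, with 95% intervals that cover counting error only. The 8 libraries held 467696 to 2492300 3′-UTR reads. These were 46.4% to 51.1% of the library totals in the Inputs, 48.9% and 70.1% in the WT RIPs and 27.3% and 31.8% in the KO RIPs, so a ratio between a WT and a KO RIP depended on which total it was scaled to. Cpeb4 itself had 130 (WT, untreated), 136 (WT, LPS), 52.0 (KO, untreated) and 52.6 RPM (KO, LPS) in the Inputs, so 3′-UTR reads of Cpeb4 remained in the KO. The WT RIPs held 836 and 770.0 RPM of Cpeb4 without and with LPS, and the KO RIPs 257 and 367, so that its level was above that of the Input in the KO RIPs too. All 6 macrophage markers had reads in every library, with a summed level of 1510 to 4390 RPM, whereas the markers of dendritic cells (4 of 5 listed in the files), B cells (2 of 4), T and NK cells (2 of 4) and neutrophils (1 of 5) summed to 0 to 9 reads in any library. Of 3 fibroblast and stroma markers, Pdgfra was at 0 in both LPS Inputs, while the 3 together had 0 reads in the untreated Inputs and 68 (WT) and 65 (KO) in the LPS Inputs. In the KO LPS Input these were all of Pdgfrb. Their part in the LPS changes below was not tested.

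The 3′-UTRs of the 8 genes differ in CPE content. The consensus CPE was searched as TTTTAT and TTTTAAT on the transcript strand, next to the CPE-G TTTTGT, the AU-rich pentamer ATTTA and the poly(A) signals AATAAA and ATTAAA, and matches may overlap one another. Irf2 carried 7 consensus CPEs in 1236 bases (chr8:46846223-46847458, plus strand, GRCm38), more than most of the 3663 regions of like length. At least 1 consensus CPE was found in 66.7% of these regions, and 7 or more in 1.26%. The first of the Irf2 elements began at base 371 and the other 6 between bases 972 and 1159, among 3 poly(A) signals at bases 840, 1023 and 1202. Irf4 carried 3 consensus CPEs and 7 CPE-Gs in 3260 bases, Irf9 carried 2 consensus CPEs and 5 poly(A) signals in 999 bases, and Irf1 carried 1 consensus CPE and 3 ATTTA pentamers in 877 bases. No consensus CPE was found in Irf3 (502 bases), Irf5 (534), Irf7 (519) or Irf8 (1519), although Irf8 held 2 CPE-Gs. In the CPE predictions that the authors deposited, Irf2 was listed for both activation and repression and Irf4 for repression, and the other 6 genes had no prediction. Of all genes, 31.8% had one. Of the elements of Irf2, 6 are printed, since it is the gene with the highest RIP over Input ratio after LPS, beside those of Irf1 and Irf9 and with the distal CPE-G of Irf8. Capitals mark the motif, and all are on the plus strand of GRCm38.p6.
Irf2, chr8:46846583-46846608: gctggaatttTTTTATtcttgtgaat
Irf2, chr8:46847184-46847209: gagcaagcttTTTTATttttttatac
Irf2, chr8:46847192-46847217: ttttttatttTTTTATacaaggggaa
Irf2, chr8:46847210-46847235: aaggggaataTTTTATtcaaggtaaa
Irf2, chr8:46847252-46847277: tataattgttTTTTATcttttctaca
Irf2, chr8:46847371-46847396: aaaaaaaaacTTTTATgagctcatgt
Irf1, chr11:53777289-53777314: atatttgtctTTTTATaaaaatttaa
Irf9, chr14:55609250-55609275: tggaagagacTTTTATctcctttttt
Irf9, chr14:55609381-55609406: actttatataTTTTATctcccagtcc
Irf8, CPE-G, chr8:120756621-120756646: aaatatttatTTTTGTattctcttaa
In Irf8 an ATTTA pentamer starts at base 1450, just before the CPE-G at base 1456.

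**Figure D1:**
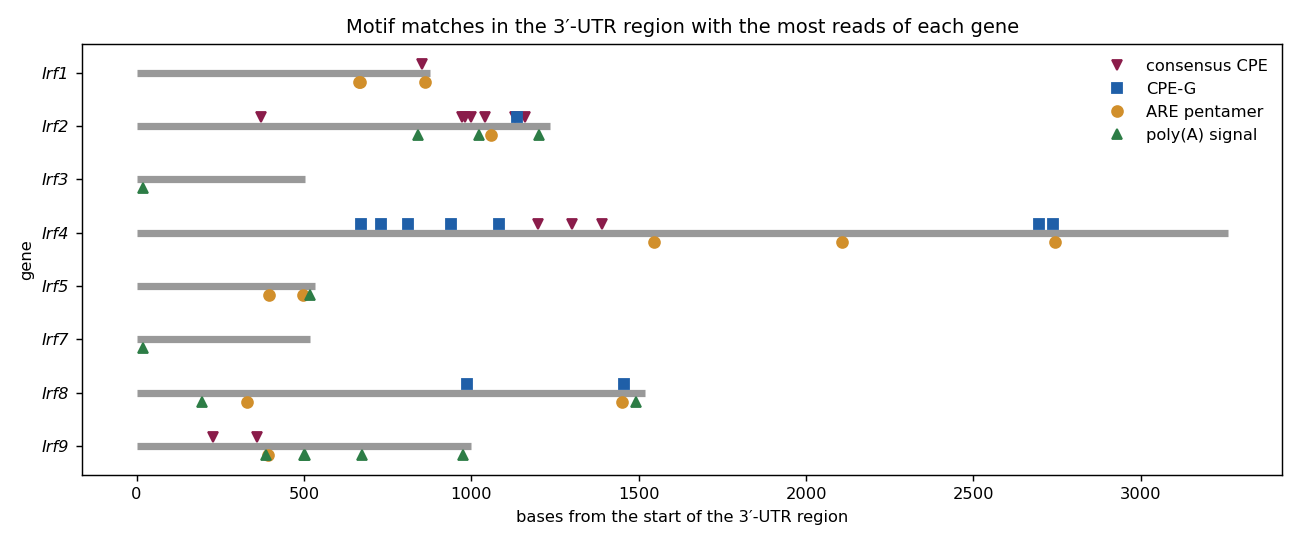
Motif matches along the 3′-UTR region with the most reads of each gene (x axis, bases from the start of the region; grey bars, length of the region; symbols, consensus CPE, CPE-G, ATTTA pentamer and poly(A) signal). Irf2 holds 7 consensus CPEs, 6 of them from base 972 on, whereas Irf5, Irf7 and Irf8 hold none.

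Irf8, the lineage factor, was at 231 RPM in the untreated WT Input and 200 in the untreated KO Input, and at 162 and 340 in the LPS Inputs. The WT and KO levels were thus apart after LPS, at 308 and 511 reads. In the RIPs Irf8 was at 254 RPM (WT) and 122 (KO) without LPS, and at 214 and 215 with LPS.

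Irf5 was at 188 (WT) and 201 RPM (KO) in the untreated Inputs, and at 132 and 126 in the LPS Inputs. The RIPs held 205 and 103 RPM of it without LPS, and 131 and 90.7 with LPS. Its level was thus lower in the LPS library of each pair, although in the KO RIPs by less than the counting error.

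Irf1 had 82.9 RPM in the untreated WT Input, 94.3 in the untreated KO Input, 150.0 in the WT LPS Input and 168 in the KO LPS Input. In the RIPs it had 184 (WT) and 91.9 RPM (KO) without LPS, and 221 and 170.0 with LPS. Irf1 was higher in all 4 LPS libraries than in their untreated counterparts. Irf2, its competitor, stood at 138 (WT) and 143 RPM (KO) in the untreated Inputs and at 102 and 161 in the LPS Inputs. The WT RIPs held 277 RPM of Irf2 without LPS and 254 with LPS, and the KO RIPs held 143 and 162. Both WT RIPs were above all 6 other libraries for Irf2.

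Irf9, which carries the interferon signal, had 36 reads or more in every library. Its Inputs held 46.3 (WT) and 63.3 RPM (KO) without LPS, and 73.8 and 79.2 with LPS. The RIPs held 84.6 and 77.0 RPM without LPS, and 112 and 53.9 with LPS. The KO RIP was the LPS library with the least Irf9.

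Irf7, the interferon inducer, was near the limit of detection before LPS. The untreated libraries held 2 (WT Input), 5 (KO Input), 2 (WT RIP) and 1 read (KO RIP), and the LPS libraries held 32, 29, 33 and 32 reads. As levels, the LPS values were 16.9 (WT Input), 19.3 (KO Input), 13.2 (WT RIP) and 36.7 RPM (KO RIP). Irf3 had 0 to 3 reads in each library and was at 0 in 3 of the 4 RIPs. By the exact Poisson interval, a count of 0 allows up to 1.48 RPM in the deepest of these libraries. In the shallowest it allows up to 7.89 RPM. Irf4 had 0 to 5 reads and was at 0 in both LPS Inputs, which by the same interval allows up to 1.94 (WT) and 2.46 RPM (KO). The WT RIP without LPS held the most Irf4, at 5 reads.

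**Figure D2:**
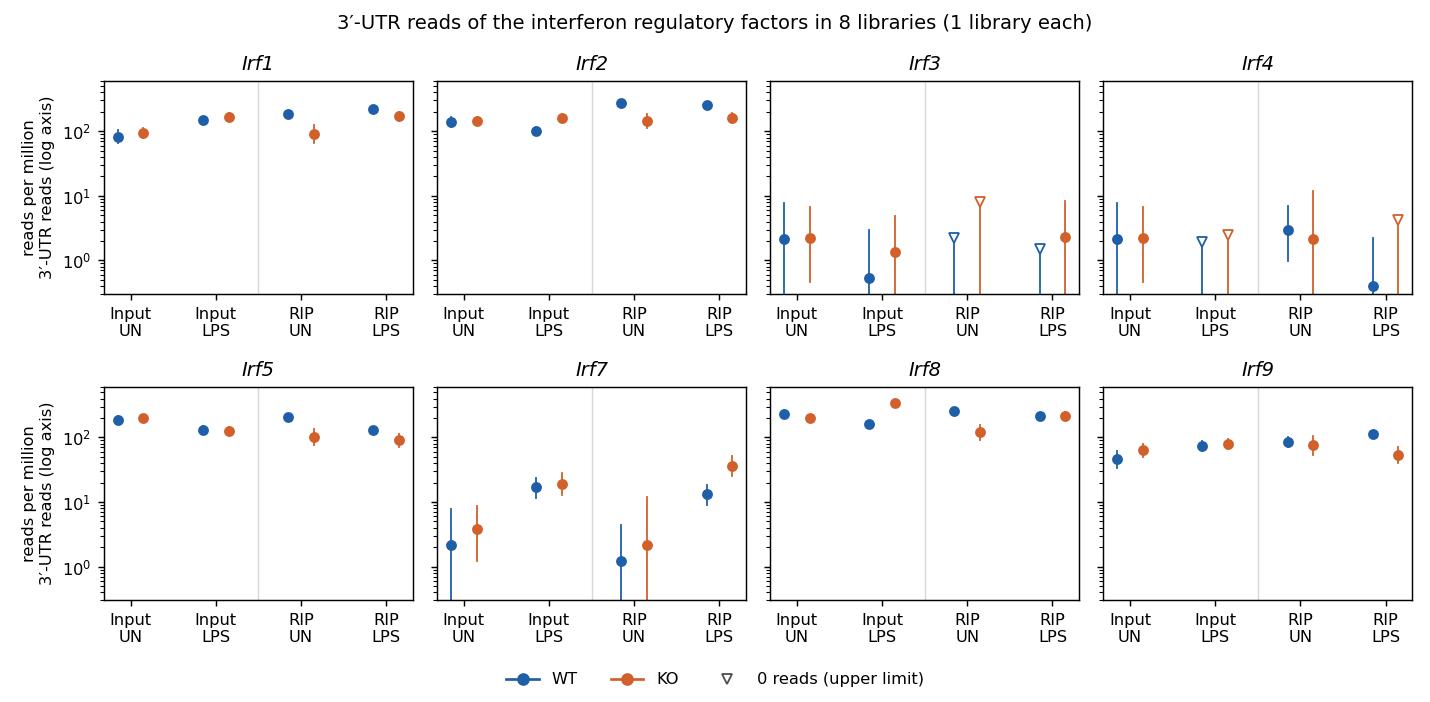
Level of each gene in the 8 libraries (y axis, RPM on a log axis; points, 1 library each; lines, exact Poisson 95% intervals cut at the lower edge; open triangles, upper limit where no read was counted; UN, untreated). Irf7 is higher in the LPS libraries, Irf2 is highest in the WT RIPs, and Irf8 lies apart between the WT (162) and KO (340) LPS Inputs.

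Levels of different genes were set against each other only per kilobase of 3′-UTR. Irf5 came first in all 4 Inputs, at 353 (WT, untreated), 376 (KO, untreated), 248 (WT, LPS) and 236 RPM per kilobase (KO, LPS). Irf8 followed in both untreated Inputs, at 152 and 132, before Irf2 at 111 and 115 and Irf1 at 94.5 and 107. The exact Poisson intervals of Irf2 and Irf1 overlapped in both, as did those of Irf8 and Irf2 in the KO. In the WT LPS Input the order was Irf5, Irf1 at 171, Irf8 at 107, Irf2 at 82.3 and Irf9 at 73.9 RPM per kilobase, and the last pair did not differ beyond counting error. In the KO LPS Input Irf8 was second at 224, with an interval of 205 to 244 that overlapped that of Irf5 (203 to 272). In the untreated RIPs Irf5 was first at 383 (WT) and 192 (KO). Irf1 came first in both LPS RIPs, at 252 (WT) and 194 (KO), within the intervals of Irf5 at 245 and 170.0. Irf7 was sixth in both LPS Inputs. This place depends on the annotated end of Irf7. The 519-base region (chr7:141262706-141263224, minus strand) has its poly(A) signal at base 19, and all 32 (WT) and 29 (KO) of its reads in the LPS Inputs touched the first 42 bases, which are the whole 3′-UTR of another transcript. Per length of this short region, an alternative chosen after the data were seen, Irf7 came first in all 4 LPS libraries. Up to 45 bases of the long region also overlap the 3′-UTR of Phrf1 on the other strand, and the sources used here do not state whether strand was used in the counting.

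LPS was followed by a higher level of Irf7 in the Inputs of both genotypes, while the other members moved less than 2-fold. The log2 ratio of LPS over untreated of Irf7 was 2.43 in the WT (interval 0.72 to 4.13) and 2.14 in the KO (0.88 to 3.41). These were 5.39-fold and 4.41-fold, on 2 and 5 untreated reads. Irf7 was the 1 of 6 measured members over 2-fold higher, against 14.8% of all genes in the WT and 13.5% in the KO, and no member was over 2-fold lower, against 17.5% and 21.2%. Irf1 was higher by 0.84 in the WT (0.48 to 1.20) and by 0.83 in the KO (0.52 to 1.13). The 2 genotypes gave nearly the same ratio for Irf1, with a difference of 0.01 (-0.46 to 0.49). Irf9 was higher by 0.65 in the WT (0.16 to 1.14) and by 0.32 in the KO (-0.08 to 0.72). Irf5 had a lower level after LPS in both, with log2 ratios of -0.51 (-0.79 to -0.23) and -0.67 (-0.94 to -0.40). In such bulk samples fewer cells of a type and less RNA per cell cannot be told apart. The median over the 6 members was 0.11 in the WT and 0.54 in the KO, beside -0.09 and -0.18 over all genes.

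Irf8 and Irf2 had opposite signs in the 2 genotypes. The Irf8 log2 ratio of LPS over untreated was -0.51 in the WT Input (-0.76 to -0.26) and 0.77 in the KO Input (0.55 to 0.98). Both intervals lay on their own side of 0, and the WT change minus the KO change was -1.28 (-1.61 to -0.95). Irf8 was the 1 of 6 members over 2-fold lower in this difference, against 5.91% of all genes, and none was over 2-fold higher, against 7.82%. Only 3.33% of genes had a lower value than Irf8. The 6 macrophage markers had a median LPS change of -0.50 in the WT Input and 0.05 in the KO Input, and summed to 3430 and 2110 RPM without and with LPS in the WT, against 2510 and 2150 for the KO. Their part in the Irf8 values was not tested. Irf2 had -0.44 in the WT (-0.76 to -0.12) and 0.18 in the KO (-0.10 to 0.45), with a difference of -0.62 (-1.04 to -0.19). The differences of the other 4 members lay between 0.01 and 0.33, and their intervals all held 0. In the untreated Inputs no member was past 2-fold between genotypes, beside 2.43% of genes higher and 4.79% lower in the WT. Irf8 was at 0.21 there (-0.05 to 0.47). In the LPS Inputs Irf8 was lower in the WT than in the KO, at -1.07 (-1.27 to -0.86), as the 1 of 6 members over 2-fold lower beside 2.43% of all genes, with none over 2-fold higher beside 3.21%. Irf2 was at -0.66 (-0.93 to -0.39), and Irf1, Irf5, Irf7 and Irf9 lay between -0.20 and 0.07.

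The other annotated 3′-UTRs of Irf8 share reads with the long one, and they gave a like difference in the LPS Inputs. The WT over KO log2 ratio was -1.07 in the 1519-base region (chr8:120755176-120756694, plus strand), -1.25 (-1.54 to -0.95) in the 406-base region at its start, and -0.93 (-1.31 to -0.55) in a 202-base region of which 170 bases are coding sequence in 3 transcripts. The LPS change of the WT Input was less uniform. It was -0.44 (-0.82 to -0.06) in the 406-base region but -0.08 (-0.59 to 0.43) in the 202-base region, where the KO had 0.51 (0.12 to 0.90) and the difference of both was -0.59 (-1.23 to 0.06). A lower Irf8 level after LPS in the WT was therefore seen over the 3′-UTR and was not detectable over the end of the coding sequence, where the interval also holds the -0.51 of the long region, whereas the lower level in the WT than in the KO after LPS was seen over both.

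**Figure D3:**
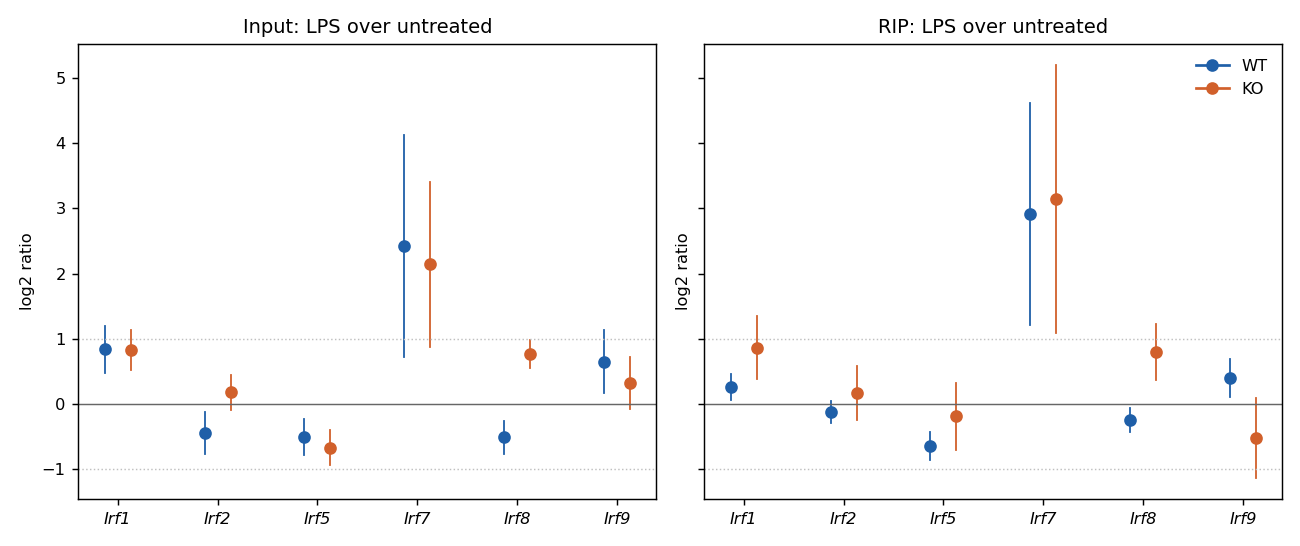
LPS over untreated log2 ratio of 6 members in the Inputs (left) and the RIPs (right) of the WT and KO (points, 1 pair of libraries; lines, 95% counting intervals; dotted lines, 2-fold). In the Inputs Irf8 lies at -0.51 in the WT and 0.77 in the KO, while Irf7 is higher after LPS in all 4 pairs.

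Irf2 and Irf1 were the members past 2-fold for RIP over Input in the WT, Irf1 only without LPS. Without LPS, Irf1 reached 1.13 (0.78 to 1.49) and Irf2 1.001 (0.72 to 1.28), the former 2.19-fold and the latter just past 2-fold. They were 2 of 5 members over 2-fold higher, against 25.5% of all genes, and none was over 2-fold lower, against 21.5%. Irf9 was at 0.85 (0.36 to 1.34), and Irf8 and Irf5 were at 0.13 (-0.11 to 0.37) and 0.12 (-0.15 to 0.38). With LPS, Irf2 was the 1 of 6 members over 2-fold higher, against 23.5% of genes, at 1.32 (1.08 to 1.55) or 2.49-fold. It had a higher ratio than 82.9% of genes. Irf9 at 0.59 (0.30 to 0.88), Irf1 at 0.56 (0.35 to 0.76) and Irf8 at 0.40 (0.19 to 0.60) followed, and Irf5 at -0.02 (-0.25 to 0.22) and Irf7 at -0.35 (-1.04 to 0.34) lay below 0, with intervals that held 0.

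In the KO neither Irf1 nor Irf2 differed between RIP and Input beyond counting error. Irf2 had 0.02 without LPS (-0.38 to 0.42) and 0.01 with LPS (-0.29 to 0.31), and Irf1 had -0.01 (-0.51 to 0.48) and 0.02 (-0.27 to 0.31). Irf5 was at -0.94 (-1.38 to -0.50) and -0.46 (-0.84 to -0.09), and Irf8 at -0.69 (-1.10 to -0.28) and -0.66 (-0.90 to -0.42). These 2 genes were thus lower in the KO RIPs than in their Inputs. Irf9 had 0.30 (-0.25 to 0.86) without LPS and -0.54 (-1.02 to -0.05) with LPS, and Irf7 had 0.92 (0.21 to 1.64) with LPS. No member was past 2-fold in the KO, while 18.2% (untreated) and 17.2% (LPS) of genes were over 2-fold higher and 12.0% were over 2-fold lower in each. On library totals every KO ratio was lower by 0.77 without LPS and by 0.68 with LPS, and every WT ratio was higher by 0.06 and 0.51. Irf1 and Irf2 then came to -0.78 and -0.75 in the untreated KO and to -0.66 and -0.67 in the KO with LPS, outside counting error, and the untreated Irf9 ratio of the KO turned to -0.46. In the WT with LPS, Irf5 came to 0.50 and Irf7 to 0.16 on these totals.

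**Figure D4:**
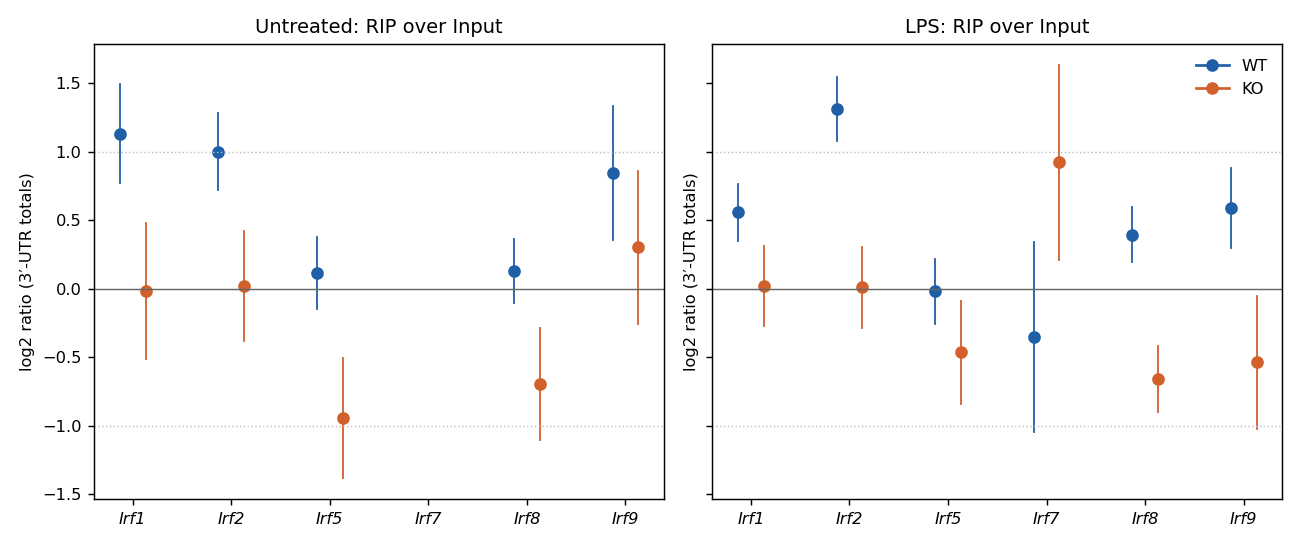
RIP over Input log2 ratio of the members in the WT and KO, untreated (left) and after LPS (right), scaled to 3′-UTR totals (points, 1 pair of libraries; lines, 95% counting intervals; dotted lines, 2-fold). In the WT, Irf2 lies at 1.001 and 1.32, in the KO at 0.02 and 0.01, and Irf7 had too few untreated reads for a ratio.

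Between the RIPs of the genotypes, 4 members were higher in the WT without LPS by similar amounts. The log2 ratio (WT over KO) was 1.04 for Irf8 (0.64 to 1.43), 0.97 for Irf1 (0.51 to 1.43), 0.97 for Irf5 (0.54 to 1.40) and 0.94 for Irf2 (0.57 to 1.30), whereas Irf9 was at 0.11 (-0.41 to 0.63). Irf8 was the 1 of 5 members over 2-fold, against 9.6% of genes, while Irf1, Irf5 and Irf2 stood just inside the threshold and none was over 2-fold lower, against 14.2%. With LPS, Irf9 was highest at 1.02 (0.58 to 1.47), the 1 of 6 members over 2-fold higher against 9.71% of genes. Irf2 was at 0.64 (0.38 to 0.91), Irf5 at 0.52 (0.16 to 0.87) and Irf1 at 0.37 (0.11 to 0.63), and Irf8 lay within counting error of 0, at -0.01 (-0.25 to 0.23). Irf7 was lower in the WT RIP, at -1.47 (-2.16 to -0.78), the 1 member over 2-fold lower beside 17.5% of genes. Scaled to library totals, all ratios between these RIPs were higher by 0.84 without LPS and by 1.14 with LPS, so that Irf8 came to 1.13 and Irf7 to -0.33 with LPS.

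When the Input ratio between the genotypes was subtracted, Irf2, Irf9 and Irf8 were the highest members after LPS. The input-corrected log2 ratio was 1.30 for Irf2 (0.93 to 1.68), 1.13 for Irf9 (0.56 to 1.69) and 1.06 for Irf8 (0.74 to 1.37). These 3 of 6 members were over 2-fold higher, against 11.6% of all genes, and the value of Irf2 was above that of 93.6% of genes. In the other regions of Irf8 it was 1.09 (0.62 to 1.56) over 406 bases and 0.31 (-0.28 to 0.89) over the mostly coding 202 bases. For Irf8 nearly all of the value of the long region came from the Inputs, where the WT was lower by 1.07, and not from the RIPs, at -0.01, when scaled to 3′-UTR totals. On library totals the RIP ratio of Irf8 was 1.13 and its input-corrected ratio 2.25. All input-corrected ratios were higher on these totals, by 0.83 without LPS and by 1.20 with LPS. For Irf2, the Inputs gave 0.66 and the RIPs 0.64 of its log2 ratio of 1.30, on 3′-UTR totals. Irf1 was at 0.54 (0.18 to 0.89) and Irf5 at 0.45 (-0.00 to 0.89). Irf7 was at -1.27 (-2.27 to -0.28), the 1 member over 2-fold lower beside 20.9% of genes, and came to -0.08 on library totals. Without LPS, Irf1 at 1.15 (0.54 to 1.76) and Irf5 at 1.06 (0.55 to 1.57) were 2 of 5 members over 2-fold higher, against 14.7% of genes. None was over 2-fold lower, against 17.4%. Irf2 was at 0.98 (0.49 to 1.47), Irf8 at 0.82 (0.35 to 1.30) and Irf9 at 0.54 (-0.20 to 1.29). The median of the members was 0.98 without LPS and 0.80 with LPS, beside -0.03 and -0.10 over all genes. The 6 macrophage markers lay the other way, with medians of -0.83 without and -0.92 with LPS. In each treatment 3 of them were over 2-fold lower, beside 17.4% (untreated) and 20.9% (LPS) of genes. Their part in the members' values was not tested. These values share the Input and RIP libraries of the ratios above.

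**Figure D5:**
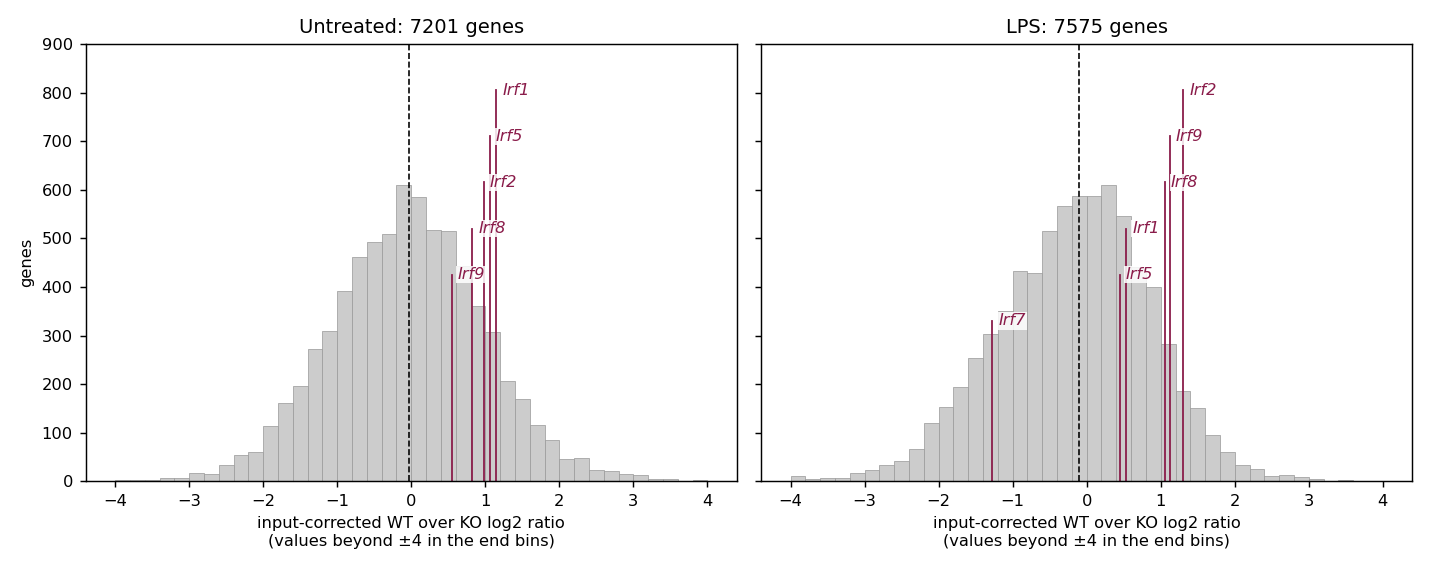
Input-corrected WT over KO log2 ratio of all genes measured (grey bars, number of genes in bins of 0.2; dashed line, their median) with the members as labelled lines whose height has no meaning. Without LPS the 5 members lie between 0.54 and 1.15; with LPS 5 lie between 0.45 and 1.30 and Irf7 lies at -1.27.

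Set beside CPE content, the input-corrected ratio of Irf2 after LPS lay above the middle of its class. Those of Irf8 and Irf5 lay well above theirs. Over all genes the median input-corrected ratio after LPS was -0.76 in the 2526 genes without a consensus CPE in the counted region, -0.10 in the 2570 with 1 or 2, 0.27 in the 1809 with 3 to 6 and 0.41 in the 670 with 7 or more. Irf2, with 7, was at 1.30, above the upper quartile of its class of 0.83. Irf9 at 1.13, with 2 elements, was above the upper quartile of 0.53 of its class. Irf1 at 0.54 (0.18 to 0.89), with 1 element, did not differ from this quartile beyond counting error. Irf8 at 1.06 and Irf5 at 0.45 have no consensus CPE and lay above the upper quartile of that class (0.02). The interval of Irf5 (-0.001 to 0.89) reached this quartile. Irf8 holds 2 CPE-Gs, which the classes do not count. Its value came from the Inputs, as given above, with the RIPs at -0.01 on 3′-UTR totals. Irf7 at -1.27 lay between the lower quartile (-1.41) and the median of the same class. By RIP over Input in the WT, Irf2 at 1.001 without LPS lay below its class median of 1.06. With LPS, at 1.32, it lay between the median of 1.04 and the upper quartile of 1.655. In the KO it was under the lower quartiles, at 0.02 beside 0.04 without LPS and 0.01 beside 0.16 with LPS. The gaps of Irf2 to these KO quartiles and to the untreated WT median were within counting error. The class medians of the KO LPS RIP over Input also rose, from -0.33 without a consensus CPE to 0.66 with 7 or more.

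On 3′-UTR totals the LPS changes in the RIPs had the sign of those in the Inputs for all 6 members in the WT and for all but Irf9 in the KO. Irf7 was higher by 2.92 in the WT RIP (1.22 to 4.62) and by 3.15 in the KO RIP (1.09 to 5.21), on 2 and 1 untreated reads. It was the 1 of 6 members over 2-fold higher in each, against 12.1% and 14.1% of genes, with none over 2-fold lower against 21.9% and 21.7%. Irf8 was at 0.80 in the KO RIP (0.37 to 1.22) and at -0.25 in the WT RIP (-0.43 to -0.06). The WT value turned positive on library totals (0.27) and with TMM factors (0.03), whereas the WT change minus the KO change kept its sign, at -1.05 (-1.51 to -0.58) and -0.75 on library totals. Irf8 was the 1 of 6 members over 2-fold lower in this difference, beside 7.46% of genes, and none was over 2-fold higher, beside 6.97%. Irf1 was higher by 0.26 in the WT RIP (0.06 to 0.46) and by 0.86 in the KO RIP (0.38 to 1.35). Irf9 was higher in the WT RIP, at 0.39 (0.10 to 0.69), and at -0.52 (-1.14 to 0.10) in the KO RIP, with a difference of 0.92 (0.23 to 1.60). Irf5 was at -0.65 (-0.87 to -0.43) and -0.19 (-0.70 to 0.32), and Irf2 at -0.13 (-0.30 to 0.05) and 0.16 (-0.25 to 0.58). The sign of Irf2 in the WT and of Irf5 in the KO also turned on library totals, to 0.39 and 0.03.

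A short annotated region of Irf1 behaved unlike its main 3′-UTR. The 108 bases at chr11:53773725-53773832 (plus strand) are the 3′-UTR of 1 transcript and coding sequence in 6 others. They held 9 (WT) and 8 reads (KO) in the LPS Inputs but 36 and 27 in the LPS RIPs. RIP over Input was 1.49 (0.49 to 2.50) for the WT, against 2.42 (1.34 to 3.51) for the KO, whereas the 877-base region (chr11:53776447-53777323) had 0.56 and 0.02. The short region was thus higher in the RIP than in the Input in the KO too. The short region of Irf5, 128 bases long, lies under the 3′-UTR of Tnpo3 on the other strand and held at most 18 reads. The Irf8 regions lie within the bounds of the gene model Gm20388.

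Of the gene lists around the family, the targets were higher as a whole with LPS in the Inputs. All 18 listed interferon-stimulated and cytokine targets were over 2-fold higher in the WT, with a median of 4.19, and all 17 measured were in the KO, with a median of 4.44. Isg15, an ubiquitin-like modifier, was higher by 4.82 and 4.44 and Cxcl10, a chemokine, by 3.95 and 5.12. Between the LPS Inputs 1 of the 18 was over 2-fold higher in the WT, beside 3.21% of all genes, and none was over 2-fold lower, beside 2.43%. The 1 gene was Il12b, which encodes an interleukin subunit, at 1.80 (1.47 to 2.13). Among the interferon receptors and the JAK-STAT signal carriers, 5 of 9 measured were over 2-fold higher in each genotype and 1 was lower. Stat2, which encodes a partner of IRF9, was at 1.85 (WT) and 1.83 (KO), and the interferon gamma receptor gene Ifngr1 was the lower one at -1.37 and -1.11. Of 18 upstream sensors and adaptors, 4 (WT) and 5 (KO) were over 2-fold higher and 3 lower in each. Over all genes 14.8% and 13.5% were higher and 17.5% and 21.2% lower. The RNA sensor Ddx58 was at 2.09 and 1.77 and the LPS receptor Tlr4 at -1.25 and -2.70. Of the binding partners and corepressors, 3 of 7 (WT) and 3 of 8 (KO) were higher and 1 lower in each. Batf, a partner of IRF4 and IRF8, was at 4.70 and 4.86, the IRF2 corepressor gene Irf2bp2 at -1.07 and -1.49, and Spi1, which encodes the IRF8 partner PU.1, at 0.12 (-0.14 to 0.37) and 0.41 (0.18 to 0.65).

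The same lists held genes on both sides in the input-corrected ratio after LPS, in which 11.6% of all genes were over 2-fold higher and 20.9% lower. The list values below are on 3′-UTR totals only. On library totals every such ratio was higher by 1.20, and 53.4% of all genes were over 2-fold higher and 2.81% lower. The lower calls and the signs below thus depend on the scaling. Of the targets, 1 of 18 was over 2-fold higher and 6 were lower, with a median of -0.63. Isg15 was at -1.30 (-1.77 to -0.82), like Irf7. Of the partners, 1 of 7 was higher and 1 lower, namely Batf at 2.72 (1.90 to 3.53) and Batf2 at -1.81 (-3.08 to -0.54). Of the receptors and signal carriers, 1 of 9 was higher, Ifngr1 at 2.08 (1.10 to 3.05), and 1 lower, the kinase gene Tyk2 at -1.25 (-1.82 to -0.68). Of the upstream genes, 1 of 16 was higher, the sensor gene Tlr3 at 1.15 (0.21 to 2.10), and 2 were lower, the adaptor gene Mavs at -1.74 (-2.40 to -1.08) and the kinase gene Ikbke at -1.03 (-1.39 to -0.67).

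The genes most like each member over the 8 libraries were found by the root mean square difference of centred log2 levels, among genes that had 50 or more reads in each of them. For Irf2 these were Hnrnpa0 (0.17), Plekha1 (0.18) and Efr3a (0.18) of 1082 genes, whose median difference was 0.66. Irf1 was nearest to Tor1aip2 (0.18), Irf5 to Arl8b (0.16) and Irf9 to Appbp2 (0.18). Irf8 had no neighbour as close, with Grb2 at 0.24, Arf5 at 0.27 and Tmed2 at 0.27.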

How the data were processed

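RIP-seq reads over annotated 3′-UTRs were analysed in 16 samples, which are 8 libraries on 2 lanes each. The authors' methods state that 100-base single-end reads were aligned to mm10 with Bowtie2 2.2.2 in local mode, that duplicates were removed with sambamba and that reads were counted per Ensembl 3′-UTR. The deposited counts were identical in the 4 tables. The deposited RPKM values were used only to find the library totals behind them. Deposited p-values, fold changes and MACS 1.4.2 scores hold the study's own comparisons and were not used. Of 31117 rows, 495 without a symbol (0.902% to 1.04% of reads) were left out, and overlapping transcripts share reads.

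Libraries were scaled to the remaining reads, and the region with the most reads was kept per gene. A ratio needed 10 reads in each pair of libraries and over 3 in one of them. With 1 library per group there was no test; members past 2-fold were counted beside the same share of all genes. The alternatives were library totals, TMM factors (edgeR 4.0.16), median-of-ratios factors, 0.1 reads added, the longest region, at least 50 reads, 1.5-fold, and a part of the rule of the study (adjusted p-value under 0.02 and log2 ratio over 0.5, applied in both directions and without its other criteria, with a chi-square test that compares 2 libraries and not the conditions). Motifs were read from GRCm38.p6, and the transcripts from GENCODE M21 of the same build. The deposited consensus CPE counts equalled the motif counts in all 26860 distinct regions. Analyses used Python 3.11.15 with pandas 2.3.3 and scipy 1.17.1. The members and gene lists were chosen with earlier results of these data known. All 8 members are named; other genes are named from those lists, and the 3 nearest profiles by rank, while the overlapping genes Phrf1, Tnpo3 and Gm20388 were named after the annotation was read. Only part of the list genes and motif windows is printed, and some items are not reported here.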

Additional observations from a re-analysis of the deposited data

Results flagged for a closer look

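Irf8 had LPS changes of opposite sign in the genotypes, with intervals on either side of 0. The WT change minus the KO change was -1.28 in the Inputs (308 against 215 reads in the WT, 511 against 265 in the KO) and -1.05 in the RIPs (533 against 423 reads in the WT, 187 against 57 in the KO). With 1 library per group the difference was not tested. In the RIPs the sign of the WT change itself depended on the scaling, as given above.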

How the results depend on the processing

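No member past 2-fold changed sign under any alternative run, and adding 0.1 reads changed none of the 15 counts of members past 2-fold. Shares of all genes past the same limit, in the direction of the members, stand in brackets. Scaled to library totals, RIP over Input had 3 members higher in the WT with LPS (35.8%). In the KO it had 2 lower without LPS (39.4%) and 3 lower with LPS (36.3%). Without and with LPS, WT over KO RIP had 4 (38.6%) and 5 higher (54.2%), and the input-corrected ratio 5 (41.4%) and 5 higher (53.4%). The LPS change of the KO RIP had 3 higher (18.3%). TMM factors gave 2 higher for the LPS change of the KO Input (17.5%) and 1 lower for RIP over Input in the untreated KO (14.7%). They gave 4 higher for WT over KO RIP without LPS (14.3%) and 3 higher for the untreated input-corrected ratio (19.0%). The LPS change of the KO RIP had 3 higher (19.0%). Median-of-ratios factors gave 2 for the LPS change of the KO Input (17.6%), 1 for RIP over Input in the untreated WT (24.9%) and 3 for WT over KO RIP without LPS (10.8%). They gave 3 for the untreated input-corrected ratio (15.4%) and 3 for the LPS change of the KO RIP (18%). All of these were higher. With at least 50 reads Irf7 dropped out of the LPS changes and their 4 counts were 0. With the longest region the count was 1 higher for RIP over Input in the untreated WT (25.5%) and 1 higher for the untreated input-corrected ratio (14.6%).

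At 1.5-fold the LPS change of the Inputs had 3 members higher in the WT (23.6%), and 3 higher (21.9%) and 1 lower (33.2%) in the KO, a count of 4. Its difference had 2 lower (13.2%) and WT over KO Input with LPS 2 lower (8.23%). RIP over Input had 3 higher in the untreated WT (35.4%) and 2 in the WT with LPS (33.5%), 2 lower in the untreated KO (25.1%), and 1 higher (28.7%) and 1 lower (25.1%) in the KO with LPS, a count of 2. WT over KO RIP had 4 higher without LPS (21%), and 2 higher (22.4%) and 1 lower (29.2%) with LPS, a count of 3, and the untreated input-corrected ratio had 4 higher (26.4%). The LPS change of the RIPs had 1 higher (19.4%) and 1 lower (35.2%) in the WT, a count of 2, and 3 higher in the KO (22.9%). By the part of the rule of the study that was run, the Inputs had 1 higher (11.2%) and 2 lower (13.7%) in the WT, a count of 3, and 3 higher (12.5%) and 1 lower (16.7%) in the KO, a count of 4, and WT over KO Input with LPS had 2 lower (0.822%). RIP over Input had 3 higher in the untreated WT (18.5%) and 3 in the WT with LPS (22.4%), and 1 lower in the KO without (6.23%) and with LPS (9.39%). WT over KO RIP had 4 higher without LPS (4.6%), and 2 higher (8.64%) and 1 lower (10.9%) with LPS. The LPS change of the RIPs had 1 higher (12.5%) and 1 lower (18.4%) in the WT and 3 higher in the KO (9.19%). A fold of 1.5 calls more by construction; for the other settings the cause was not tested.

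With the short region of Irf7, which is shorter than a read, the gene first per length moved to place 2 of 8. It then stood behind Irf7 in all 4 LPS libraries. With 99 bases added to each length, the first gene of the KO LPS Input moved to place 2 behind Irf8. With the longest region Irf1 moved to place 6 (WT) and 7 (KO) behind Irf5 in the LPS RIPs. The first 2 of these alternatives were chosen after seeing the data. No paired analysis was possible because each group has 1 library. Depth limits Irf3, Irf4 and untreated Irf7, at 5 reads or fewer.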
